A study of Mus musculus with 2 samples.

Results

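Rab GTPases form the largest family of small GTPases of the Ras superfamily, and the genes described here are those that encode them in PK44 cells of the mouse yolk sac. A Rab gene was every row of the count tables whose symbol is Rab followed by a number and at most a letter and a further digit, which gave 59 of 23154 genes. Of these, 46 had a count in at least 1 cell, against 13206 of all genes, and 13 had none. PK44 cells are a sorted endothelial population in which hemogenic endothelial cells are enriched. They carry CD31, CD201, Kit and CD44, lack CD41, CD43 and CD45 (CD41-CD43-CD45-), and came from yolk sacs at embryonic day E10.0. They were profiled by modified STRT-seq, a single-cell method that counts the 3′ ends of transcripts by unique molecular identifiers. There was 1 condition in 2 libraries, replicate 1 with 43 cells and replicate 2 with 44 cells. The labels gave no strain, genotype, treatment or number of embryos for either library, and nothing stated that the libraries came from separate litters, so the spread between them may be technical.

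A Rab protein switches between a GTP-bound form on a membrane, where it recruits motors, tethers and other effectors, and a GDP-bound form that is held in the cytosol by GDP dissociation inhibitor. Exchange factors load the GTP, GTPase-activating proteins end the signal, and escort and prenylation proteins give each new Rab its lipid anchor. Because each compartment carries its own Rab proteins, the family is known as a set of membrane identity markers. Embryonic and sinusoidal endothelium takes up much material from its surroundings, and the scavenger receptors encoded by Lyve1 and Stab2, which mark yolk sac endothelium, are cargo of endocytic and recycling routes. Runx1 encodes the transcription factor needed for endothelial cells to give rise to blood cells.

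Replicate 1 held 8932527 counts (13218 to 702028 per cell) and replicate 2 held 12706360 (51620 to 956593 per cell), and no cell barcode was shared between the libraries. Of the endothelial markers Pecam1, Cdh5, Kdr, Tek, Emcn, Esam and Cldn5, 0 of 7 were without a count. In 3 cells, 2 of replicate 1 and 1 of replicate 2, each of the mesenchymal genes Col1a1, Col1a2, Col3a1 and Lum had at least 100 counts although the sort was for endothelium. Values that rest on these 3 cells are given with and without them. Over 12390 genes the libraries differed by more than counting error, with a chi-square of 94.0 for each degree of freedom. It was taken on counts summed over the cells of each library, so variation between cells also enters this value.

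Rab transcripts made up 0.248% of the counts of replicate 1 and 0.309% of those of replicate 2, or 2481 and 3090 CPM (counts per 1e6 counts of the library). Within a cell the share ranged from 0.0974% to 0.472% with a median of 0.247% in replicate 1, and from 0.219% to 0.501% with a median of 0.3% in replicate 2. A median of 18 different Rab genes had a count per cell in replicate 1 and of 26 in replicate 2. When 20000 counts were drawn from each cell (1 cell had fewer and was left out), replicate 1 was still lower, with 5 to 18 Rab genes per cell against 8 to 22 and a median of 16 in replicate 2.

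In the mean of both libraries the recycling members held the largest summed level, 736 CPM in replicate 1 and 1123 CPM in replicate 2, followed by the members of the endoplasmic reticulum (ER) and Golgi apparatus with 777 and 894 CPM, so the order of these classes differed between the libraries. Secretory members summed to 469 and 459 CPM. Members of late endosomes, lysosomes and lysosome-related organelles summed to 210.2 and 333 CPM, those of early endosomes to 169.9 and 159.9 CPM, and the remaining members to 118 and 121 CPM. A class sum counts only its measured transcripts, and the number of members per class differs. The 5 highest members held 43.5% of all Rab counts in replicate 1 and 45.4% in replicate 2.

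**Figure D1:**
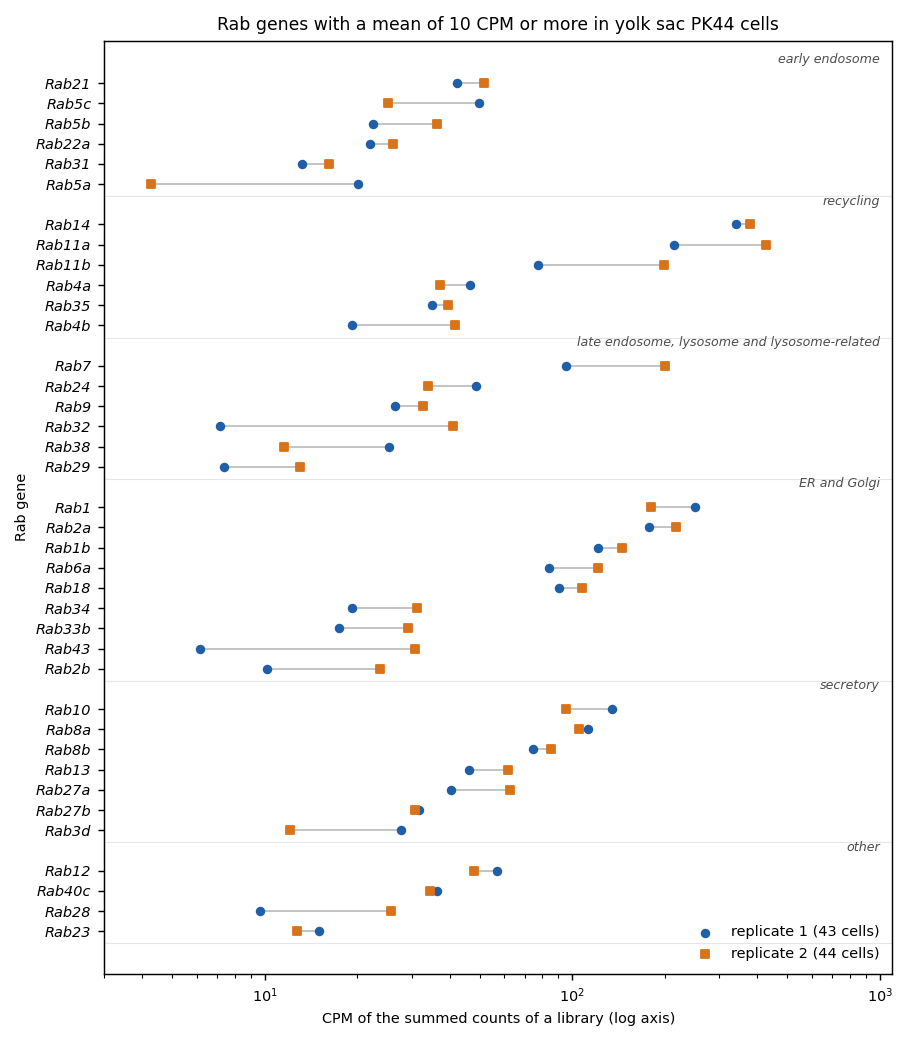
Levels of the 38 Rab genes with a mean of 10 CPM or more, by the compartment they serve. Each row is 1 gene, the circle is replicate 1 (43 cells) and the square replicate 2 (44 cells), and the horizontal axis is CPM of the summed counts on a log axis; Rab14 lies at 339.9 and 379.7 CPM, while Rab32, Rab43 and Rab5a show the widest gaps between libraries.

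Rab14, which acts between the trans-Golgi network and recycling endosomes, was the highest member in the mean of both libraries, and in replicate 2 Rab11a was higher. Its level was 339.9 CPM in the first library and 379.7 CPM in the second, or 359.8 ± 28.1 CPM (SD, n = 2 libraries), which ranked it 438 among all genes. A count was found in 39 of 43 and 43 of 44 cells, and thinning left it in 83.3% and 97.7% of cells. Rab25, the epithelial relative of Rab11 in the same recycling class, stood at the other end with 4 counts in 2 cells of replicate 2 and none in replicate 1. Their promoters are printed here as the extremes of 1 class, from RefSeq on build GRCm38.p6 (250 bases before to 50 after the gene's start), in lower case with every CG dinucleotide in capitals. Rab14 lies at chr2:35201071-35201370 on the minus strand with 27 CG, and Rab25 at chr3:88548230-88548529 on the minus strand with 9. Across the class CG did not follow level. Rab11a had 16 CG at a mean of 320 CPM, Rab11b 12 at 138 CPM and Rab35 43 at 37.2 CPM. Rab4b had 25 CG at 30.4 CPM, and Rab15, at its start richest in CG, 38 at 2.56 CPM.
Rab14 promoter: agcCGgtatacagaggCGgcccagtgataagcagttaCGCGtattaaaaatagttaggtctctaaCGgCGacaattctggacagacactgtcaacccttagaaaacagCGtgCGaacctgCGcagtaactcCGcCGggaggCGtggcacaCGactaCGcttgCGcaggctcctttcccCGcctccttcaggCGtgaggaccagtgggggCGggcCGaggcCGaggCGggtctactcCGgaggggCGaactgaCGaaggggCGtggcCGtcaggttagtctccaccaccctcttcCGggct
Rab25 promoter: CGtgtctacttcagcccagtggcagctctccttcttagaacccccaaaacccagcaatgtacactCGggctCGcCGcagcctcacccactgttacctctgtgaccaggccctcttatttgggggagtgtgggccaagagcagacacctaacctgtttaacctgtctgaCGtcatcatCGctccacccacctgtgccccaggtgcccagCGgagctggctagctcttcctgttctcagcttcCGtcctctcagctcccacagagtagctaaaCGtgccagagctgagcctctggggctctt

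Of the 59 members, 48 matched a RefSeq promoter by symbol, and where a gene had several starts the one richest in CG was used. The 38 matched members with a count had a median of 25.5 CG dinucleotides per 300 bases, with a range of 8 to 45. The 10 matched members without a count ranged from 5 to 27, and all 27025 genes of the table a median of 8. The letters GGGCGG of a GC box were found on either strand in 28 of the 38 promoters (73.7%), in 6 of the 10 and in 37.3% of all promoters. TATAAA was found in 1 of 38, 2 of 10 and 13.8% of all promoters, and CCAAT, which does not overlap the other motifs in letters, in 16 of 38, 5 of 10 and 37.4%. These are counts of letters in a fixed window and no measure of binding.

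Rab11a and Rab11b, the main Rab proteins of the recycling endosome, were both higher in replicate 2. Rab11a had 215 CPM in the first library and 426 CPM in the second, and its median over cells was 70.3 and 379 CPM, although a count was found in 40 of 43 and 44 of 44 cells. Rab11b had 77.1 and 198 CPM. The ratios of replicate 2 to replicate 1 were 1.98 and 2.57. Rab4a, which returns cargo rapidly from early endosomes, had 46.3 and 37.1 CPM, and its paralog Rab4b 19.3 and 41.6 CPM. Rab35, of a further rapid recycling route, differed little with 35.0 and 39.4 CPM. Rab15 had 51 counts in 4 cells, and 62.7% of them lay in the 3 cells with mesenchymal transcripts (0.117 and 1.44 CPM without them).

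The members of early endosomes were lower. Rab21, which binds integrins and directs their uptake, led this class in the mean of both libraries with 42.2 and 51.7 CPM, and 58 of 87 cells had a count (66.7%, with an exact 95% binomial interval from 55.7% to 76.4%). The 3 Rab5 paralogs, which govern fusion of early endosomes, were unequal. Rab5c had 49.8 and 25.1 CPM, Rab5b 22.5 and 36.4 CPM, and Rab5a 20.2 and 4.25 CPM. Of the Rab5a counts, 72.2% came from 3 cells. Rab22a, of early endosomes, had 22.1 and 26.2 CPM, and its paralog Rab31 had 13.2 and 16.2 CPM.

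Rab7, the regulator of late endosomes and their fusion with lysosomes, had 95.4 CPM in the first library and 200.3 CPM in the second, so it too was higher in replicate 2. Rab9, which returns cargo from late endosomes to the Golgi apparatus, had 26.4 and 32.7 CPM. The members of lysosome-related organelles, Rab32 and Rab38, which are known from pigment cells and platelets, went opposite ways between libraries. Rab32 had 7.16 and 41.0 CPM and was counted in 6 of 43 and 26 of 44 cells, whereas Rab38 had 25.4 and 11.6 CPM and was counted in 11 and 5 cells. In each case 3 cells held much of the total, 49.6% for Rab32 and 54.3% for Rab38.

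Among the ER and Golgi members, Rab1, which carries cargo from the ER to the Golgi apparatus, had 251 and 180.5 CPM. Its paralog Rab1b had 121 and 146 CPM, and Rab2a, of the same step, 177 and 218 CPM. Rab6a, of traffic within and out of the Golgi apparatus, had 84.1 and 122 CPM, and Rab18, found on lipid droplets and the ER, 90.7 and 108 CPM. Transcripts of close paralogs such as Rab1 and Rab1b were counted from uniquely mapped reads only, so reads shared by both would be missing from either.

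Among the secretory members, Rab10 and Rab8a, which carry vesicles to the cell surface, had 135 and 95.5 CPM and 113 and 105 CPM. Of the Rab10 counts, 14.1% lay in the 3 cells with mesenchymal transcripts, and without them its levels were 103 and 96.1 CPM. Rab8b had 74.4 and 85.4 CPM, and Rab13, linked to tight junctions, 46.2 and 61.7 CPM from 12 of 43 and 33 of 44 cells. Rab27a and Rab27b, which act on secretory granules including the Weibel-Palade bodies of endothelium, had 40.3 and 63.0 CPM and 31.7 and 30.9 CPM. Rab3d had 27.7 and 12.0 CPM. Rab3a, of neuronal synaptic vesicles, had no count in replicate 1 and 43 counts in 4 cells of replicate 2, and Rab37 had 19 counts in 3 cells.

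The 13 members without a count were Rab17, Rab19, Rab20, Rab26, Rab33a, Rab36, Rab39, Rab39b, Rab3c, Rab40b, Rab42, Rab7b and Rab9b. At these depths a count of 0 allows up to 3 counts, which is 0.336 CPM in replicate 1 and 0.236 CPM in replicate 2, or a count in up to 6.98% and 6.82% of cells (counting error only). A further 8 members had a count in under 10% of cells. No member had a count in all 87 cells, and 4 (Rab11a, Rab1, Rab14 and Rab11b) had one in over 90%.

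**Figure D2:**
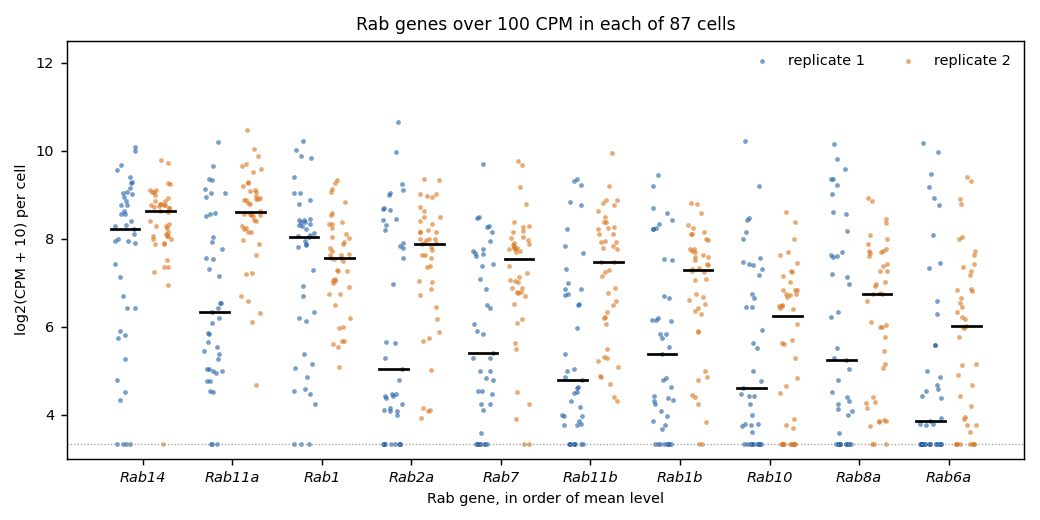
Per-cell levels of the 10 Rab genes over 100 CPM, as log2(CPM + 10). Each point is 1 cell, blue for replicate 1 and orange for replicate 2, black bars are medians over cells and the dotted line is the value of a cell without a count; the median for Rab11a corresponds to 70.3 CPM in the first library and 379 CPM in the second, and cells of replicate 1 lie further down for most of the genes.

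The order of the levels was firm only in part. Of the 58 neighbouring pairs in the order by mean CPM, 4 had both libraries of the higher gene above both of the lower one. Among the abundant members this held for Rab18 over Rab8b and for Rab8b over Rab13, and not for any adjacent pair from Rab14 down to Rab18. Pairs of members without a count, such as Rab17 and Rab19, are among the 58 and could not separate. Members further apart in the order could, as with Rab14 (339.9 and 379.7 CPM) over Rab1 (251 and 180.5 CPM). The 3′ counts stand for 1 transcript each whatever its length. Such counts do not call for a length correction, so the order by CPM is the one used here. In GENCODE M21, 59 of 59 symbols were found (Rab1 as Rab1a). Divided by the length of the longest coding transcript there, the order began with Rab11a at 137 CPM per kilobase, Rab14 at 117 and Rab2a at 92.7.

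Of 33 Rab genes with at least 10 CPM in both libraries, 12 (36.4%) were over 1.5 times apart between libraries, against 42.5% of 7598 such genes of the whole table. Replicate 2 was the higher one for 9 of the 12. Of all genes with at least 10 CPM in both libraries, 49.9% were higher in replicate 2, whatever the size of the gap. This share was not taken over the genes more than 1.5 times apart. The libraries are samples of 1 group and were not tested against each other.

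The relation of the Rab genes to Lyve1, Stab2 and Runx1 was then asked within each library. Cells above the library's median CPM of one of these genes were called high and the others low, the counts of each set were summed, and the 4 sums of the 2 libraries were compared with edgeR's quasi-likelihood test and Benjamini-Hochberg adjustment over all genes tested. Cells were chosen on the same counts, so CPM values of a cell share its total and its depth. High and low were relative to each library, and their ranges overlapped between libraries. Runx1-low cells of replicate 1 reached 52.2 CPM of Runx1, while Runx1-high cells of replicate 2 began at 11.2 CPM. Lyve1-low cells of replicate 2 reached 435 CPM of Lyve1, while Lyve1-high cells of replicate 1 began at 117.5 CPM. For Stab2 the same 2 limits were 72.4 and 7.12 CPM. After the low-count filter, 40, 39 and 40 of the 59 members could be tested.

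Between Lyve1-high cells (21 and 22) and Lyve1-low cells (22 and 22), no Rab gene passed the test. By edgeR 0 of 40 were called at an adjusted p below 0.05, where 0% of 10688 genes were called, 0 with the library as a block (0.103% of genes) and 0 with DESeq2 (0.318%). At an unadjusted p below 0.05 there were 2 of 40 members and 3.51% of all genes. Both sums of Lyve1-high cells lay above both of Lyve1-low cells for 8 members and below them for 7, where 16.2% and 17.5% of all genes did so. Both libraries moved in the same direction for 17 of 40 members, against 53.2% of all genes. The median log2 fold change was -0.03 over the members and 0.01 over all genes tested.

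Rab21 had the smallest p of the family in this comparison. It had 18.6 CPM in Lyve1-low cells of replicate 1 and 23.8 CPM in those of replicate 2, against 89.4 and 83.1 CPM in Lyve1-high cells, so the sums did not overlap and the ratios were 4.81 and 3.49. The log2 fold change was 2.02 ± 0.69 (SE), with a 95% interval of 0.50 to 3.55 and an adjusted p of 1.00 (edgeR). The unadjusted p was 0.0141, and the adjusted p ranged from 0.384 to 1.00 over the alternatives. Among the deposited counts, Rab21 was found in 11 of 22 Lyve1-low and 12 of 21 Lyve1-high cells of replicate 1, and in 15 of 22 and 20 of 22 cells of replicate 2. With cells thinned to 20000 counts these were 22.7% and 40% in replicate 1 and 22.7% and 54.5% in replicate 2, and the log2 fold change was 1.55 with an interval of -0.03 to 3.12.

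Rab12, which directs the transferrin receptor to lysosomes, was the other member at an unadjusted p below 0.05 by edgeR without a block (0.0335). Its levels were 22.5 and 35.4 CPM in Lyve1-low and 126 and 61.5 CPM in Lyve1-high cells, a log2 fold change of 1.69 ± 0.69 with an interval of 0.16 to 3.22 and an adjusted p of 1.00 by edgeR. After thinning the log2 fold change was 0.48 (-1.26 to 2.21). Rab33b, of the Golgi apparatus and autophagy, had 9.46 and 17.5 CPM in Lyve1-low and 33.6 and 42.3 CPM in Lyve1-high cells (log2 fold change 1.49, interval -0.91 to 3.88).

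Among members of equal sign in both libraries, the 3 largest differences in the other direction were those of Rab38, Rab2b and Rab34. Rab38 had 33.9 and 20.9 CPM in Lyve1-low and 9.97 and 0.506 CPM in Lyve1-high cells, a log2 fold change of -2.40 with an interval of -6.06 to 1.25. Rab2b had 15.1 and 33.9 CPM against 0.997 and 11.3 CPM, and Rab34, which is linked to lysosome position and cilia, 27.5 and 42.9 CPM against 3.66 and 17.2 CPM. For all 3 genes the sums did not overlap and the interval held 0. Few cells carried much of these values, with 54.3%, 41.3% and 50.8% of their counts in 3 cells, as they did for Rab21 (35.2%), Rab12 (37.7%) and Rab33b (51.9%). Of the Rab34 counts, 14.2% lay in the cells with mesenchymal transcripts, without which its levels in all cells were 15.8 and 28.2 CPM.

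Among the members over 100 CPM, Rab1b was lower in Lyve1-high cells of replicate 1, with 168 against 35.2 CPM, and less so in replicate 2, with 151 against 137 CPM (log2 fold change -0.89, interval -2.27 to 0.50). With the library as a block its log2 fold change was -1.18 ± 0.55 (SE). The unadjusted p was then 0.0432 and the adjusted p 0.808 (edgeR). Rab14 had 356 and 366 CPM in Lyve1-low and 320.3 and 387 CPM in Lyve1-high cells, with an interval of -0.86 to 0.80 for the log2 fold change. Rab7 had 92.7 and 192 CPM against 104 and 206 CPM (-1.07 to 1.32), and Rab11a 168 and 444 CPM against 313 and 396 CPM (-0.86 to 1.28). Rab27a, of secretory granules, had 45.1 and 96.7 CPM in Lyve1-low and 32.6 and 22.4 CPM in Lyve1-high cells, which did not overlap (log2 fold change -1.37, -3.04 to 0.30). The interval of Rab14 excluded a log2 fold change of 1 in either direction, and that of Rab7 did not.

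**Figure D3:**
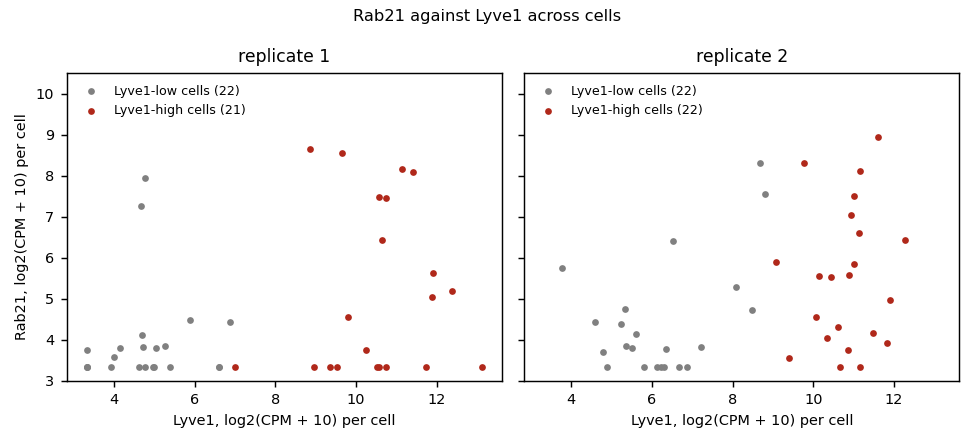
Rab21 against Lyve1 in each cell, as log2(CPM + 10), for replicate 1 and replicate 2. Grey points are Lyve1-low and red points Lyve1-high cells (above the library's median); Rab21 had a count in 11 of 22 and 12 of 21 cells of replicate 1 and in 15 of 22 and 20 of 22 cells of replicate 2, and Lyve1-high cells without a Rab21 count lie along the bottom of both panels.

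Depth and cell type markers moved with this split. The median count per cell was 113787 in Lyve1-high and 252882 in Lyve1-low cells of replicate 1, and 217120 and 278987 in replicate 2. Of 7 endothelial markers, 6 were higher in Lyve1-high cells of both libraries and 1 was lower, with summed levels of 1479 and 3208 CPM in Lyve1-low and 3208 and 4226 CPM in Lyve1-high cells. All 9 hematopoietic markers were lower, at 1807 and 1005 against 901 and 289 CPM. Of 7 mesenchymal markers 3 were higher and 0 lower in both libraries (776 and 28.1 CPM in Lyve1-low, 973 and 692 CPM in Lyve1-high cells). Visceral endoderm markers summed to at most 17.6 CPM, with Apob, Amn, Cubn and Hnf4a at 0. Macrophage markers summed to 146 to 175 CPM, with Cx3cr1 and Adgre1 at 0, and megakaryocyte markers to 14.6 to 173 CPM, with Gp1bb and Ppbp at 0. The part of depth and of these markers in the differences was not tested.

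Between Stab2-high and Stab2-low cells, edgeR called 0 of 39 members and 0% of 10630 genes. The block called 0 (0.122% of genes) and DESeq2 0 (0.0659%). At an unadjusted p below 0.05 there were 0 members and 1.9% of genes. Sums did not overlap for 6 members that were higher in Stab2-high cells and 6 that were lower, against 14.5% and 13.7% of genes. Both libraries moved in the same direction for 18 of 39 members, against 48.8% of all genes. The median log2 fold change was -0.06 over members and 0.02 over all genes. Stab2 was so low in replicate 1 that 16 of its 22 Stab2-low cells had no count and the others at most 7.06 CPM, while Stab2-high cells there had a median of 29.0 CPM. Of the high cells, 8 of 21 in replicate 1 and 18 of 22 in replicate 2 were also Lyve1-high. Median depth went opposite ways, 110982 in Stab2-low and 245523 in Stab2-high cells of replicate 1 and 291242 and 213444 in replicate 2. Of 9 hematopoietic markers 3 were lower in Stab2-high cells of both libraries, of 7 endothelial markers 2 were higher, and of 7 mesenchymal markers 5 were higher. Summed hematopoietic levels went opposite ways, at 1338 and 1028 CPM in Stab2-low and 1597 and 224 CPM in Stab2-high cells. So did the endothelial ones, at 2264 and 3141 against 1956 and 4362 CPM. The part of depth and markers here was not tested.

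Rab31, an early endosome member, had the largest difference towards Stab2-high cells, with no count in Stab2-low cells of replicate 1 and 8.35 CPM in those of replicate 2, against 22.7 and 25.9 CPM (log2 fold change 2.52, interval -1.67 to 6.71). It had a count in only 5 cells of replicate 1. Rab33b had a log2 fold change of 0.73 with overlapping sums, and Rab12 48.2 and 34.8 CPM against 65.0 and 63.6 CPM. Towards Stab2-low cells, Rab40c, an adaptor of a ubiquitin ligase, had 87.9 and 38.1 CPM in Stab2-low and 2.11 and 28.9 CPM in Stab2-high cells (log2 fold change -2.02, -4.36 to 0.32). Rab43 had 14.8 and 41.9 CPM against 0.384 and 16.1 CPM, and Rab27b 36.4 and 48.8 CPM against 29.4 and 7.26 CPM. Of 9 tested members of the ER and Golgi apparatus 5 had a log2 fold change above 0, with a median of 0.03. Among the 4 others were Rab6a and Rab18, whose sums did not overlap. Rab6a had 123 and 154 CPM against 60.0 and 77.6 CPM (-2.22 to 0.20), and Rab18 162 and 122 CPM against 44.4 and 87.2 CPM (-2.38 to 0.16).

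Between Runx1-high and Runx1-low cells, edgeR again called 0 of 40 members, where 0.00941% of 10629 genes (1 gene) were called. The block called 0 members and 1.56% of genes, DESeq2 0 members and 1.25% of 10216 genes, and an unadjusted p below 0.05 was reached by 0 members and 5.53% of genes. Sums did not overlap for 2 members that were higher in Runx1-high cells and 3 that were lower, against 19.9% and 17.9% of genes. The sign was the same in both libraries for 9 of 40 members, against 55.4% of all genes. The median log2 fold change was -0.21 over members and -0.01 over all genes, and 12 of 40 members were above 0.

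Rab6a had the smallest p, at 93.6 and 192 CPM in Runx1-low and 80.8 and 71.8 CPM in Runx1-high cells (log2 fold change -0.91, interval -2.15 to 0.33, adjusted p of 0.969 by edgeR). The recycling members Rab4b and Rab11b were lower in Runx1-high cells of both libraries, Rab4b with 30.2 and 57.0 against 13.9 and 30.4 CPM (-3.14 to 1.18) and Rab11b with 89.9 and 268 against 71.9 and 148 CPM (-2.11 to 0.70). Rab11a showed this in replicate 2 alone, with 206 and 595 CPM in Runx1-low and 224 and 304 CPM in Runx1-high cells. In the other direction, Rab23, a negative regulator of Hedgehog signaling, had 0.985 and 8.15 against 22.7 and 15.6 CPM (-1.89 to 5.99), and 79.4% of its counts came from 3 cells. Rab14 had 317 and 357 against 359 and 387 CPM, which did not overlap by a narrow margin (-0.70 to 0.99).

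The Runx1 split carried the clearest shift of markers. Of 9 hematopoietic markers, 8 were higher in Runx1-high cells of both libraries, at 792 and 103 CPM summed in Runx1-low and 1877 and 1060 CPM in Runx1-high cells, a list that includes Runx1 itself. All 7 endothelial markers were lower (3330.5 and 5171 against 1393 and 2673 CPM). The 3 cells with mesenchymal transcripts were all Runx1-low, and the 7 mesenchymal markers were lower in Runx1-high cells. Without these 3 cells the median log2 fold change of the members was -0.12 and still 0 were called. Runx1-high cells were deeper. Their median total was 260240 in the first library and 271734 in the second, and that of Runx1-low cells 95376 and 213444. Whether depth or marker content shaped the Rab values was not tested.

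**Figure D4:**
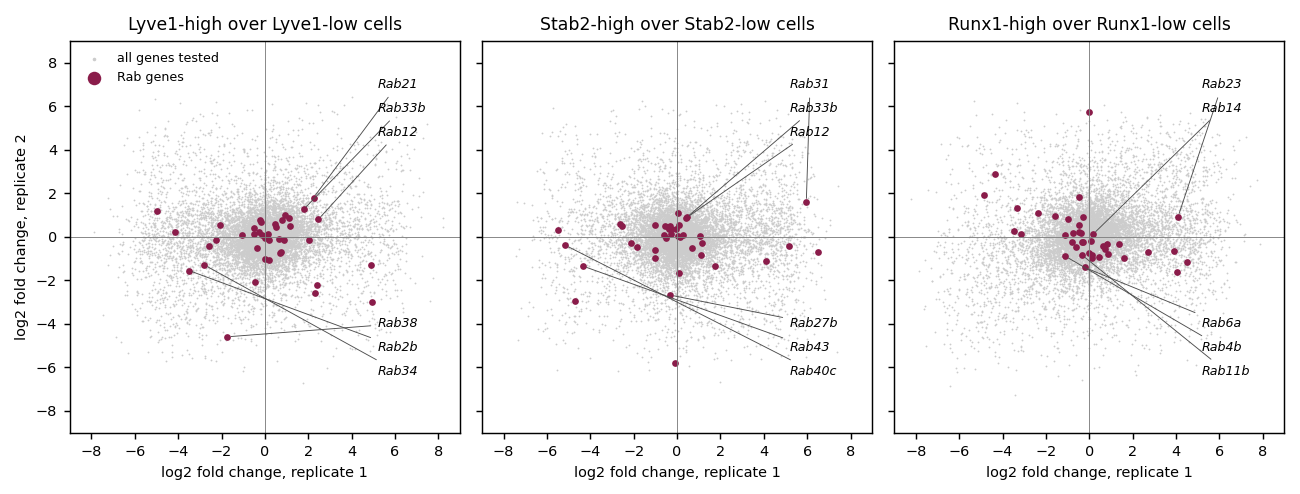
Log2 fold change of every tested gene in replicate 1 (horizontal) and replicate 2 (vertical) between high and low cells of Lyve1, Stab2 and Runx1. Grey points are all genes tested, the large points are Rab genes and labels mark the largest differences of equal sign in both libraries; Rab genes scatter on both sides of 0 in each panel, and 0 passed the test.

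Correlations across the single cells of a library gave a similar picture, as a description without a test. The cells of a library share its preparation, and each correlation also carries depth. Over the Rab genes with a count in at least 10 cells (29 of 59 in replicate 1, 36 in replicate 2), the median Spearman rho with Lyve1 was -0.06 over 43 cells of replicate 1 and -0.02 over 44 cells of replicate 2, beside -0.05 and -0.04 over all such genes. With Stab2 it was 0.04 and 0.00 (all genes 0.03 and -0.05), and with Runx1 0.08 and 0.05 (all genes 0.13 and 0.10). Of the 28 members that could be read in both libraries, 0 were above 0.3 and 0 below -0.3 in both, for any of the 3 genes. The share of all genes that passed in both libraries was not taken, so this count is no result about the members. Within replicates 1 and 2, 1.43% and 2.83% of all such genes were above 0.3 with Lyve1. With Stab2 these shares were 4.03% and 3.10%, and with Runx1 13.5% and 14.5%. Below -0.3 they were 4.73% and 5.48%, 1.20% and 7.76%, and 0.657% and 2.52%. By some other measures of correlation, and not by all, Rab21 was above 0.3 in both libraries, again without a share over all genes beside it. Rab21 with Lyve1 had 0.33 and 0.40 given the total count of a cell and 0.34 and 0.42 as Pearson correlation of log2(CPM + 10). In thinned cells it had 0.22 and 0.42, and without the cells with mesenchymal transcripts 0.26 and 0.39. With Stab2 Rab21 had 0.32 and 0.35 in thinned cells and 0.31 and 0.17 without the cells with mesenchymal transcripts. It had 0.21 and 0.19 given the total count and 0.27 and 0.23 as Pearson correlation. Without the cells with mesenchymal transcripts, Rab5a with Lyve1 was below -0.3 in both. Given the total count Rab5a had -0.26 and -0.27, and as Pearson correlation -0.16 and -0.22.

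The sign was the same in both libraries for 15 of 28 members with Lyve1, 15 with Stab2 and 17 with Runx1. The same share over all genes was not taken. Rab21 with Lyve1 had 0.29 in replicate 1 and 0.39 in replicate 2, and Rab5a with Lyve1 -0.34 and -0.27 on counts in 12 and 11 cells. Other members differed between the libraries. Rab14 with Lyve1 had -0.15 and 0.34, and with Runx1 0.37 and -0.04. Rab11a with Runx1 had 0.00 and -0.36, and Rab35 with Stab2 0.39 and -0.01. The median rho of the members with the total count of a cell was 0.23 in replicate 1 and 0.07 in replicate 2, beside 0.27 and 0.12 over all genes.

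**Figure D5:**
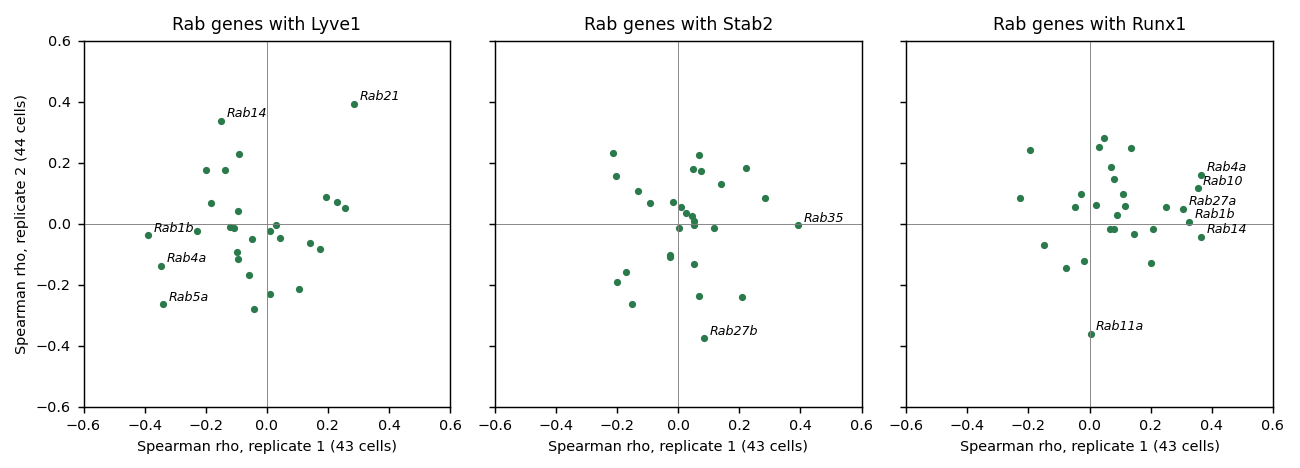
Spearman rho of 28 Rab genes with Lyve1, Stab2 and Runx1 across the 43 cells of replicate 1 (horizontal) and the 44 cells of replicate 2 (vertical). Each point is 1 gene, and names are given where rho passed 0.3 in either direction in a library; none did so in both libraries in the same direction.

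The partner genes of the pathway were taken from lists of 146 genes, of which 145 had a row. Gdi2, which extracts GDP-bound Rab proteins from membranes, had a level near that of Rab14, at 384 and 334 CPM, and Fdps, of isoprenoid synthesis, had 131 and 155 CPM. All 10 genes of the list of GDP dissociation inhibitor, escort and prenylation reached 10 CPM in the mean. Of the exchange factors, Gapvd1 acts on Rab5, and Dennd5a on Rab39, which had no count in any cell. In the mean of both libraries these were the most abundant exchange factors, Gapvd1 with 105 and 109 CPM and Dennd5a with 77.0 and 97.0 CPM. By the same measure, the most abundant GTPase-activating proteins were Tbc1d4, of Rab10, with 59.2 and 117 CPM, and Tbc1d15, of Rab7, with 76.5 and 83.3 CPM. Of the effectors, Eea1, the tether of early endosomes, had 142 and 167 CPM and Vps35, of the retromer, 167 and 132 CPM. The endocytic coat was higher, with Ap2s1 at 209 and 668 CPM and the clathrin light chain Clta at 418 and 444 CPM.

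After the low-count filter, 0 partner genes were called by edgeR without a block in any of the 3 splits, and without that filter 1 was, Ehd3 in the Lyve1 split. No share over all genes is given here for the fit without that filter. With the filter and no block, the smallest adjusted p among the coat and adaptor genes, a list that holds Ehd3, was 0.752 in the Lyve1 split (edgeR). With the library as a block, edgeR called 1 of 128 in the Runx1 split, where 1.56% of all genes were called. This was Ehd2, which shapes the neck of caveolae and endocytic tubules. It had 83.4 and 81.1 CPM in Runx1-low and 0.173 and 19.5 CPM in Runx1-high cells, a log2 fold change of -4.64 with an adjusted p of 0.0182 under the block and of -3.05 with an adjusted p of 0.881 without it. Without the 3 cells with mesenchymal transcripts, the block gave -4.77 and an adjusted p of 0.0203. DESeq2 called 2, Ehd3 in the Lyve1 split (log2 fold change 3.29, adjusted p 0.00581) and Cltb in the Runx1 split (-2.88, adjusted p 0.0375). In these splits it called 0.318% and 1.25% of all genes, beside 1 of 130 and 1 of 128 partner genes. At an unadjusted p below 0.05 edgeR gave 8 of 130 partner genes for Lyve1, 0 of 128 for Stab2 and 4 of 128 for Runx1, where all genes gave 3.51%, 1.9% and 5.53%. Of 32 tested coat and adaptor genes, 26 had a log2 fold change above 0 in Lyve1-high cells, against 5378 of 10688 genes, with a median of 0.45. Of these 32 genes 4 were at an unadjusted p below 0.05 (3.51% of all genes). In 11 both Lyve1-high sums lay above both Lyve1-low sums and in 3 below, where 16.2% and 17.5% of all genes did so. Both libraries had the same sign for 20 of the 32, against 53.2% of all genes. In the Stab2 split 23 of 32 were above 0 (5428 of 10630 genes), but the list's median changed sign between libraries (-0.23 and 0.45). Sums there did not overlap for 2 higher and 4 lower genes. In the Runx1 split 17 of 32 were above 0 (5282 of 10629 genes), with a median of 0.02. The other partner lists in the Lyve1 split had 5 of 10, 17 of 29, 11 of 25 and 16 of 34 above 0.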

How the data were processed

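Raw counts per gene and cell were deposited by the authors for the 2 libraries. According to their methods, reads were split by cell barcode, trimmed, aligned to the mm10 transcriptome with HISAT2 2.1.0 and counted with HTSeq if uniquely mapped, and duplicates were removed by UMI, so that a count is 1 distinct UMI. Their methods state a filter on low-quality cells. All 87 deposited cells were kept, although the lowest had 1941 genes with a count, under the minimum that those methods give, no doublet caller was run, and library depth is given in the report. Intervals of shares are exact (Clopper-Pearson, 95%) and floors stand for 3 counts or cells, and both cover counting error only.

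CPM were computed from the counts of a library or of a cell. The members, role classes, partner lists, markers and tests were chosen with earlier results of these data known. Partner and class lists came from general knowledge of the pathway. Named genes were a fixed set of members, the 5 highest, those with no count, those called, and for each split and direction the 3 largest differences of equal sign in both libraries among genes with a mean of at least 10 CPM, with the called or else the 2 most abundant partner genes of each list.

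Cells were split at the library median CPM of Lyve1, Stab2 or Runx1, and the counts were summed per library and set of cells. After filterByExpr and TMM scaling, edgeR 4.0.16 in R 4.3.3 fitted the 4 sums without a block and tested them by quasi-likelihood. P-values were adjusted after Benjamini and Hochberg over all genes but the one that made the split, and the threshold was 0.05. The 2 sums of a library carry its replicate number and are paired by it. Their deviations from the group means correlated at 0.177, 0.175 and 0.197 across genes. Printed intervals of log2 fold changes came from fits without a block and so ignore this pairing. In the Lyve1 split the block lowered the SE of Rab11a from 0.48 to 0.33 and raised that of Rab21 from 0.69 to 0.76. The fits were tested on simulated data. Alternatives were the library block, DESeq2 1.42.0, other size factors, no filter, cells without mesenchymal transcripts, thinned cells, the outer cells only of each split and each library left out. Thinning drew 20000 counts per cell. Positions and lengths came from GENCODE M21 (GRCm38) and promoters from RefSeq (GRCm38.p6). Python 3.11.15, pandas 2.3.3, numpy 2.4.6, scipy 1.17.1 and matplotlib 3.10.9 were used. The list of well barcodes holds no measurement and was used only to ask whether the libraries shared a barcode.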

Additional observations from a re-analysis of the deposited data

How the results depend on the processing

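The number of Rab genes called was 0 in each of the 3 splits under every alternative run, including the library as a replicate block, where the value was 0 for Lyve1, Stab2 and Runx1, and the block combined with other cells or depths, which was chosen after seeing the data. Partner genes called over the 3 splits numbered 0 in the reported fit, 1 with the replicate block (Ehd2), 2 with DESeq2 and 1 with no low-count filter (Ehd3, log2 fold change 3.27, adjusted p 0.0231). Of all genes, the block called 1.56% in the Runx1 split, and DESeq2 0.318% in the Lyve1 and 1.25% in the Runx1 split. For the fit with no low-count filter such a share is not given. The median log2 fold change of the members for Lyve1 (-0.03) was 0.088 with splits and sums from thinned cells, and -0.0011 to 0.17 with 1 library left out. For Stab2 (-0.06) it was -0.27 to 0.021 with 1 library left out. For Runx1 (-0.21) it was -0.11 with no low-count filter, -0.12 without the 3 cells with mesenchymal transcripts, -0.016 with splits and sums from thinned cells, and -0.30 to -0.24 with 1 library left out. The mean of both libraries' median rho with Lyve1 (-0.04) was 0.013 given the total count. That with Stab2 (0.02) was -0.027 for thinned cells and -0.050 as Pearson correlation of log2(CPM + 10). That with Runx1 (0.06) was 0.034 for thinned cells, 0.00046 given the total count and 0.034 as Pearson correlation. With 1 library left out these were -0.06 to -0.02, 0.00 to 0.04 and 0.05 to 0.08. The median share of cells with a count over the 46 members (47.7%) was 20.9% in thinned cells, 30.5% at 2 or more counts, 18.4% at 10 or more, and 40.7% to 55.7% with 1 library left out. The median level (30.2 CPM) was 27.0 to 33.3 CPM, and the share of all counts (0.279%) was 0.248% to 0.309%, with 1 library left out. Levels of 38 single members moved by more than the SD between libraries for 8 with the mean over cells and for 2 without the cells with mesenchymal transcripts. Leaving out 1 of 2 libraries cannot move a mean by more than that SD and was not counted. With 2 libraries and 4 sums per split, many tests had wide intervals, and a missed threshold does not show equal levels.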
